A study of Mus musculus with 34 samples.

Results

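Crenolanib, an inhibitor of the PDGF receptors and of FLT3, was applied to mouse N2A neuroblastoma cells at 2 µM for 24 h, and its transcriptome was compared with that of cells given the solvent DMSO alone. The comparison rested on 1 Crenolanib library and the 3 DMSO libraries, labelled A, B and C, of 34 libraries in all, chosen by their labels. The labels name the treated library by its well in a kinase inhibitor collection, and the study's compound list pairs that well with Crenolanib and its dose. The study screened small molecules for effects on the splicing of microexons and profiled active compounds by polyA+ RNA-seq of N2A cells. All cells, controls included, were in 0.4% DMSO. N2A is a single established line, so that every library shares its genome and its neuroblastoma origin, and the labels do not say whether the DMSO libraries came from separate cultures. The study's methods describe DMSO controls for RNA-seq as biological replicates, but in a smaller number than the libraries used here, so which of them these are is not given in the sources used here. With 1 treated library there is no spread between treatments. An exact permutation test of 1 library against 3 cannot go below 0.25, so no p-value is given, and every call compares these libraries, not the conditions.

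PDGFRA, PDGFRB and FLT3 are class III receptor tyrosine kinases, which on binding of their ligands signal through the RAS, RAF, MEK and ERK cascade and through PI3K. Microexons are very short exons, mostly of neurons, that are often in frame and add a few residues to proteins of the synapse, the cytoskeleton and vesicle transport. Their inclusion in neurons depends on the splicing regulators SRRM4 and SRRM3 and is opposed by PTBP1. The level of an exon is given as percent spliced in (PSI), the percentage of transcripts of the gene that contain it. The limit for a microexon was set at 27 nt.

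The targets of the compound were at or near 0 in these cells. On the scale of reads scaled to transcript length and library size (RPKM), of which the deposited table holds 1 merged value per condition, Pdgfra was at 0.46 with DMSO and at 0.45 with Crenolanib. Pdgfrb was at 0.04 in both conditions, and Flt3 was at 0.01 with DMSO and listed at 0 with Crenolanib. Kit, another class III receptor, was at 0.26 and 0.33 RPKM, and Csf1r was listed at 0 in both. Of the 13 genes of these receptors and their ligands, only Pdgfa, which encodes a PDGF chain, passed 5 RPKM, at 6.44 with DMSO and 6.73 with Crenolanib. Which kinase the compound met in these cells was not tested.

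A total of 592 microexons were detected, of which 36 (6.08%) were called higher and 3 (0.507%) lower with Crenolanib. An event was called when the libraries differed by 10 PSI or more and the reads gave that direction a probability over 0.95. The same comparison of each DMSO library with the other DMSO libraries called 5 to 9 microexons higher (0.849% to 1.42%) and 6 to 9 lower (0.939% to 1.42%). The share called higher with Crenolanib was therefore above, and the share called lower was below, the range found among the control libraries. When only 2 DMSO libraries were used, as in the comparisons among controls, 36 to 41 microexons were called higher and 4 to 7 lower (6 without library B and 7 without library C). The 36 increased microexons lie in 36 genes. Each had a Crenolanib value above all of its DMSO values, which is no added support for the calls. The probability behind a call was averaged over the DMSO libraries, so a value inside their range could hardly pass 0.95.

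The matched exons show what is gained or lost in the transcript. Of the 39 called microexons, 33 were matched to GENCODE vM21 transcripts of GRCm38 by their length, strand, chromosome and both neighbouring intron lengths, and 28 of the 30 matched increased ones lay within the coding sequence of a transcript. The event table itself uses mm9 coordinates. The following microexons are shown because they are the matched ones among the 12 largest increases, the 3 decreases, and those of Lphn1 and Ccnl1, whose values are also given. Capitals mark the microexon and lower case up to 6 bases of the neighbouring exons in the spliced transcript, 5′ to 3′.
Snx14 (chr9:88400723-88400749, minus strand): gAGGTAGCCTAAGTTTGGATGATTTCCGa
Ppfia3 (chr7:45343553-45343579, minus strand): cGAGACCAAGGAGATCAGCTGGGAGCAGa
Ank2 (chr3:126979256-126979267, minus strand): cgacagTACCATCCCCAGttccga
Inpp4a (chr1:37374272-37374289, plus strand): gaaacaCAGTTTTGAGGAGTGTTGtacatc
L1cam (chrX:73855652-73855663, minus strand): gtacagGTCCCTGGAGAGtgacaa
Incenp (chr19:9883192-9883203, minus strand): cctaagTGCAGCTTTGTTgagaag
Pacsin2 (chr15:83383623-83383628, minus strand): tttgagGATGAAgagtgg
Layn (chr9:51076322-51076345, minus strand): gcgCCTCGGACTTGGACCCCAGAGGAGggc
Exoc1 (chr5:76540747-76540767, plus strand): gaagAACTGCCTAAAGTTACAGAAGaatc
Lphn2 (chr3:148860427-148860438, minus strand): cttacaTGGAGCAAAAAGtctttg
Lphn1 (chr8:83926262-83926276, plus strand): cttacaAAGTGGAGCAGAAAGtcttcg
Zfyve27 (chr19:42185620-42185640, plus strand): tgagGAGACCCACCTGGTGGTGCTGgagg
Ccnl1 (chr3:65950213-65950226, minus strand): tgcctgGGTAGTCCATGATGgaatta
Herc4 (chr10:63303845-63303868, plus strand): gtgGATGTCAGCCATGGAGTAACTGAGttg
Nbea (chr3:55994048-55994056, minus strand): ccaactGGTTCTAAGactgaa
Gnas (chr2:174328108-174328131, plus strand): catAGCTAACCCAAGGAGCACCTAAGGgtg
The Lphn1 and Lphn2 microexons, of 15 and 12 nt, sit at the same place in a pair of related receptors, as the shared bases on both sides show. The Ccnl1 and Gnas microexons were matched only in transcripts in which the exon is not coding.

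The largest increase was that of the 27-nt microexon of Snx14, which encodes a sorting nexin. Its PSI was 51.6, 46.9 and 42.4 in DMSO libraries A, B and C and 78.0 with Crenolanib (95% Wilson interval 72.2 to 82.8, from 232 reads). The Crenolanib value was 31 PSI above the DMSO mean, against an SD among the DMSO libraries of 4.6 (n = 3). The microexons of Ppfia2 and Ppfia3 followed, in genes for liprin-α scaffold proteins of the presynaptic active zone. The 9-nt exon of Ppfia2 stood at 15, 21.6 and 15.8 PSI with DMSO and at 47.6 with Crenolanib (interval 36.1 to 59.4, 67 reads). That of Ppfia3 stood at 38.3, 30.1 and 40.9 PSI and at 63.6 with Crenolanib (interval 51.8 to 74.0, 69 reads). In both genes the interval of the treated library lay above all DMSO values.

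The next largest increases lay in Ank2, Inpp4a, L1cam and Incenp. The 12-nt exon of Ank2, the gene of ankyrin-B, which links membrane proteins to spectrin, was at 62.9, 50.8 and 58.9 PSI with DMSO and at 83.7 with Crenolanib. The 12-nt exon of L1cam, a neural cell adhesion molecule, was at 42.6, 41.4 and 38.1 PSI and at 63.8 with Crenolanib, from 339 reads. The DMSO libraries lay close together for L1cam, with an SD of 2.3 PSI (n = 3). For the 18-nt exon of Inpp4a, a phosphoinositide phosphatase, they did not, with values of 42.4, 26.9 and 23.4 PSI against 55.5 with Crenolanib (interval 43.3 to 67.0, 64 reads). The 12-nt exon of Incenp, a subunit of the chromosomal passenger complex, was at 55.1, 54.6 and 48.8 PSI and at 71.8 with Crenolanib (interval 67.7 to 75.6, 500 reads).

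Pacsin2, Exoc1 and Zfyve27 were also among the 12. The 6-nt exon of Pacsin2, a protein that bends membranes in endocytosis, had the shortest sequence and the most reads of the 12. It was at 37.5, 34.6 and 40.5 PSI with DMSO and at 55.6 with Crenolanib (interval 52.6 to 58.5, 1063 reads). The 21-nt exon of Exoc1, a subunit of the exocyst, was nearly absent with DMSO, at 4.2, 8.4 and 6.0 PSI, and at 24.0 with Crenolanib. Zfyve27, the gene of protrudin, which acts in neurite outgrowth, had its 21-nt exon at 46.6, 37.5 and 47.4 PSI and at 61.2 with Crenolanib. In none of these 3 genes did the Wilson interval reach a DMSO value.

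The remaining members of the 12 were the microexons of Layn and Lphn2. Layn encodes layilin, a receptor for hyaluronan, and its 24-nt exon was at 86.4, 81.0 and 78.6 PSI with DMSO and at 100 with Crenolanib, from 60 reads. It was the 1 increased microexon above 90 PSI in the treated library. The 12-nt exon of Lphn2, the gene of the adhesion receptor latrophilin-2, was at 17, 15 and 18.5 PSI and at 34.3 with Crenolanib. In Lphn1 the 15-nt exon was at 52.8, 54.3 and 41.4 PSI and at 59.8 with Crenolanib, a difference of 10.3 PSI that was 6.3 and no longer called without DMSO library C. Lphn1, like Clasp1, Clasp2, Ccnl1 and the others named in the next paragraphs outside the 12, was chosen after its values were seen.

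**Figure D1:**
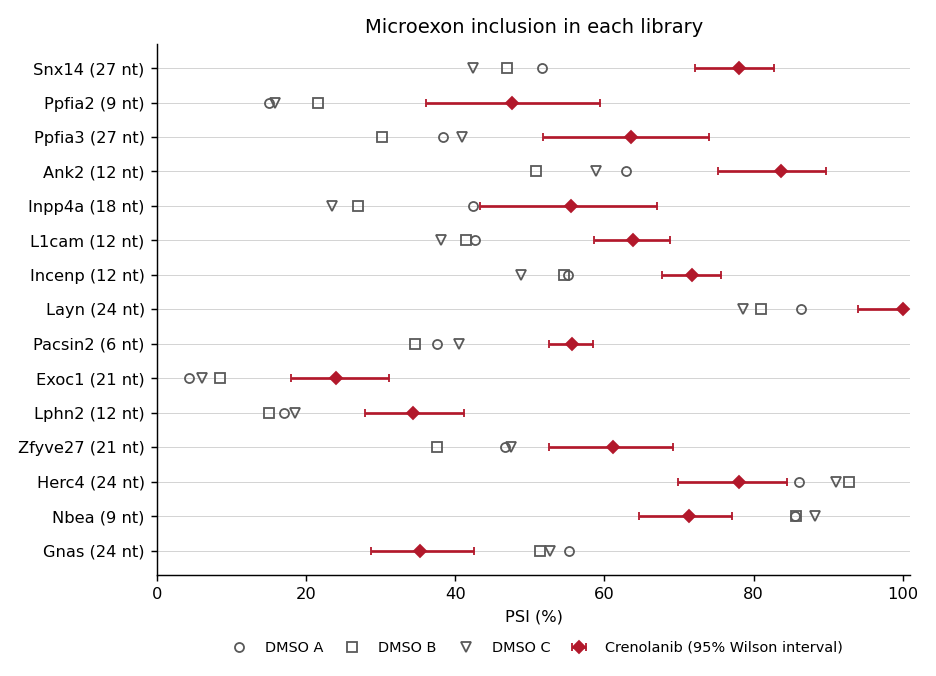
PSI (%) of the 12 microexons with the largest increase and the 3 with a decrease, in DMSO libraries A, B and C (open symbols) and the Crenolanib library (red, with its 95% Wilson interval, which covers counting error only). The Crenolanib value of Snx14 was 78.0 against 42.4 to 51.6 with DMSO, and for Inpp4a the lower end of the interval, 43.3, lay next to the highest DMSO value, 42.4.

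Among all 36 increased microexons the change ranged from 10.2 to 31 PSI with a median of 15.4, and 16 of them changed by less than 15 PSI. Their DMSO means ran from 6.2 to 82.0 PSI with a median of 45.8, and their median with Crenolanib was 63.7. Their lengths ran from 6 to 27 nt with a median of 18. Related genes recurred among them. Clasp1 and Clasp2, for proteins of growing microtubule ends, both had an increased 24-nt exon, at 68.7 and 37.2 PSI on average with DMSO and at 83.8 and 51.5 with Crenolanib. Without DMSO library B the difference of Clasp2 was 9.6 PSI in place of 14.3 and that of Odz3 9.7 in place of 11.7, both short of a call. Other increased microexons lie in Spna2 (α-II spectrin), Picalm (clathrin assembly), Erc1 (active zone), Agrn (agrin), Odz3 (a teneurin), Arrb1 (β-arrestin) and the kinase genes Mink1 and Mark3.

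Several of these rested on deep counts and a narrow spread of the controls. The 15-nt exon of Spna2 was at 68.3, 69.3 and 66.1 PSI with DMSO and at 84.0 with Crenolanib, from 1128 reads. The 24-nt exon of Picalm was at 30.5, 34.6 and 33.6 PSI and at 48.5 with Crenolanib, from 1206 reads. The 24-nt exon of Ckap5, a microtubule polymerase, was at 44.0, 45.3 and 44.9 PSI and at 57.9 with Crenolanib, from 481 reads. The difference exceeded the SD of the DMSO libraries, 1.7, 2.1 and 0.7 PSI, several fold in each. The 18-nt exon of Abi2 and the 15-nt exon of Myo9b had only 2 DMSO libraries that passed the filters, which the naming rule does not admit. Their increases, 16.5 and 15.1 PSI, were also smaller than those of the 12 named.

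The calls fell mostly on microexons that the controls include in part of their transcripts. Of 32 microexons with a DMSO mean of 50 to 70 PSI, 13 (40.6%) were called higher, and of 34 at 30 to 50 PSI, 10 (29.4%). Below 10 PSI 2 of 224 were called, and at 90 PSI or above 0 of 210 were called. An exon above 90 PSI cannot gain 10 PSI, so the last group could give no call. Over the 158 microexons with a DMSO mean between 10 and 90 PSI, 121 were above and 37 below their DMSO mean with Crenolanib, with a median difference of 4.41 PSI. In that range 34 (21.5%) were called higher and 3 (1.9%) lower, whereas 2.67% to 4.94% were called higher between DMSO libraries. The SD among the DMSO libraries in that range had a median of 3.09 PSI and a 95th percentile of 10.19.

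The increases were spread over the length range. Of microexons of 3 to 15 nt, 17 of 314 (5.41%) were called higher, and of those of 16 to 27 nt, 19 of 278 (6.83%). Of microexons with a length that is a multiple of 3, and so in frame where coding, 34 of 445 (7.64%) were called higher, against 2 of 147 (1.36%) of the others. Those 2 were the 14-nt exon of Ccnl1 and the 10-nt exon of Sypl. Out-of-frame microexons were seldom at intermediate levels, with 10 of 147 between 10 and 90 PSI, and within that range 33 of 148 in-frame ones (22.3%) and 1 of 10 others (10.0%) were called. The difference by frame was not tested at matched starting levels.

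**Figure D2:**
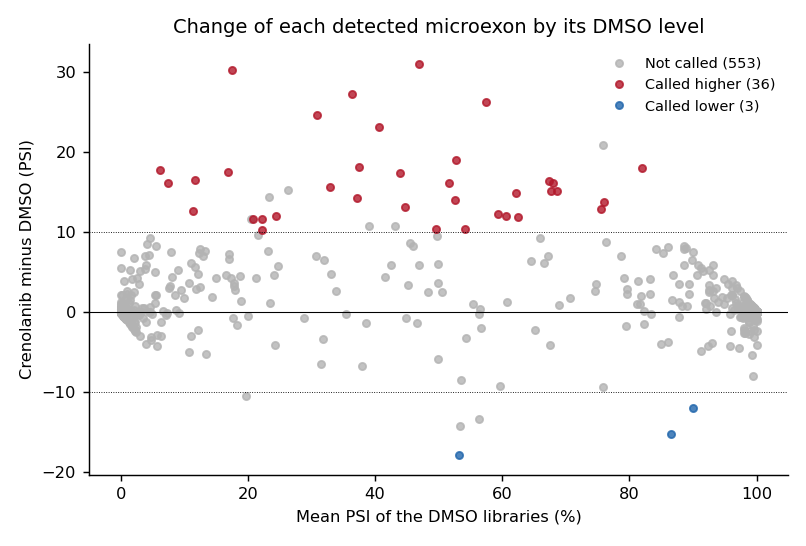
Difference in PSI between the Crenolanib library and the mean of the DMSO libraries (y axis) against that mean (x axis, %) for each of 592 detected microexons, with dotted lines at 10 PSI in each direction. Called increases (red, 36) lay mostly at DMSO means between 10 and 80 PSI, and called decreases (blue) numbered 3.

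Near the threshold, the increased microexons with the smallest change were those of Fbxo25 (10.2 PSI), Lphn1 (10.3) and 2410002O22Rik, now named Trappc13 (10.3). Leaving out library A lost the calls of Fbxo25, 2410002O22Rik and Mtss1l (9.9, 9.7 and 9.1 PSI), leaving out B that of Fbxo25 (8.1 PSI), and leaving out B or C that of Dtnb (14 and 9.4 PSI). Of the microexons that were not called, Rpgrip1l differed most. There the difference was 20.86 PSI, with an SD of 19.53 among the DMSO libraries. In Kdm1b it was 15.28 PSI with an SD of 5.64, and in Arhgef40 14.34 with an SD of 12.57. The others of the 6 that were 10 PSI or more higher and not called were Src, Mast2 and Prdm10, with differences between 10.69 and 11.65 PSI. On the lower side Shank2 and Iffo1, among others, differed by -14.18 and -13.36 PSI, with SDs of 13.92 and 9.56, and were not called.

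The 3 decreased microexons lay below all of their DMSO values, which the rule for a call all but requires. The 24-nt exon of Gnas, the gene of the stimulatory G protein α-subunit, was at 55.3, 51.4 and 52.7 PSI with DMSO and at 35.3 with Crenolanib (interval 28.7 to 42.5, 181 reads). The 9-nt exon of Nbea, the gene of neurobeachin, a scaffold of synaptic membrane traffic, was at 85.6, 85.7 and 88.3 PSI and at 71.3 with Crenolanib. The 24-nt exon of Herc4, a ubiquitin ligase, was at 86.1, 92.8 and 91.0 PSI and at 78.1 with Crenolanib (interval 69.9 to 84.5, 121 reads).

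In the genes that the study had followed by RT-PCR, the exons taken here gave no call in the Crenolanib library. For each gene the microexon or longer exon with the most reads was taken, preferring a DMSO mean of 10 to 90 PSI. It was not matched to the RT-PCR primers and may be another exon. The 21-nt Mef2d microexon, the exon of the screening reporter, was at 89.5, 88.7 and 88.7 PSI with DMSO and at 89.7 with Crenolanib. Mef2d encodes a transcription factor of neurons and muscle. The microexon of Mast2 was at 47.0, 48.9 and 33.3 PSI and at 53.8 with Crenolanib, above all controls, which had an SD of 8.5 PSI (n = 3). That of Ergic3 was at 33.9, 39.8 and 42.0 PSI and at 37.2, and that of Trappc9 at 29.7, 31.6 and 33.2 PSI and at 25.1. The study describes its Trappc9 microexon as relatively highly included in N2A cells, which the DMSO mean of 31.5 PSI here does not show. The longer exon of Zdhhc20 was at 29, 41.4 and 31.3 PSI and at 43.3 with Crenolanib. Those of Mgrn1 and Asph stood at 25.5 and 56.2 with Crenolanib, against DMSO means of 19.9 and 61.6.

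Longer cassette exons gave smaller shares of calls. Of 56087 detected, 330 (0.588%) were called higher and 195 (0.348%) lower, whereas DMSO libraries against each other gave 0.3% to 0.352% higher and 0.395% to 0.528% lower. Those comparisons used 2 control libraries. Leaving out DMSO library A, B or C gave 417, 425 and 393 higher, against 167 to 209 between DMSO libraries. Lower calls then numbered 234, 255 and 246, against 235 to 294. Most cassette exons are nearly always included, so that the comparison is closer over the 2708 with a DMSO mean of 10 to 90 PSI. There 318 (11.7%) were called higher and 91 (3.36%) lower, against 6.16% to 6.8% higher and 3.05% to 4.56% lower between DMSO libraries. The median difference over these exons was 2.08 PSI, below the 4.41 PSI of microexons in the same range.

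The 5 largest cassette increases were in Sh3pxd2a, Magi3, Dguok, Brsk2 and Tpm1. The 45-nt exon of Sh3pxd2a, the gene of the podosome scaffold TKS5, was at 48.1, 43.9 and 45.2 PSI with DMSO and at 82.4 with Crenolanib. The 66-nt exon of Brsk2, a kinase of neuronal polarity, was at 20.1, 18.3 and 14.1 PSI and at 49.7. The 91-nt exon of Magi3, a junction scaffold, was at 36.5, 50.2 and 56.5 PSI and at 81.2. All 3 were outside the range of the controls, as the rule for a call all but requires, and that range was widest for Magi3. The 100-nt exon of Dguok, a mitochondrial nucleoside kinase, was at 37.0 PSI on average with DMSO and at 69.9.

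Tpm1, the gene of an actin-binding tropomyosin, had the deepest counts of the 5. A 76-nt exon was at 48.2, 54.4 and 48.7 PSI with DMSO and at 81.5 with Crenolanib (interval 78.5 to 84.1, 715 reads). The adjacent 76-nt exon, looked up after the first was seen, moved the other way, from 48.4, 44.7 and 49.4 PSI to 19.2 with Crenolanib (interval 15.9 to 23.1, 462 reads). The pair thus differed from DMSO in opposite directions. A pair of 74-nt exons of Atp8a1, a phospholipid flippase, showed the same, with 1 at 41.8 PSI on average with DMSO and 71.2 with Crenolanib and the other at 61.5 and 33.9. Clasp1 had a 108-nt exon at 20.2, 18.5 and 20.2 PSI with DMSO and 47.9 with Crenolanib, besides its increased microexon. Mef2d, whose microexon gave no call, had a 138-nt exon at 62.0, 63.4 and 63.7 PSI with DMSO and 74.9 with Crenolanib. The exons of Atp8a1, Clasp1 and Mef2d were chosen after their values were seen.

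The 5 largest cassette decreases were in Nrcam, Kcnma1, Mtmr12, Fance and Dmpk. The 156-nt exon of Nrcam, a neuronal cell adhesion molecule, was at 76.5, 71.9 and 85.0 PSI with DMSO and at 42.6 with Crenolanib. The 130-nt exon of Mtmr12, a catalytically inactive myotubularin, was at 100 PSI in all 3 DMSO libraries and at 69.7 with Crenolanib. The 156-nt exon of Kcnma1, the BK potassium channel gene, was at 91.8, 100 and 100 PSI and at 65.5. These rested on 48 to 77 reads in the Crenolanib library. The increases of Sh3pxd2a and Dguok rested on 56 and 66 reads, and those of Brsk2, Magi3 and Tpm1 on 97, 154 and 715. The exons of Fance, of the Fanconi anaemia complex, and of Dmpk, the myotonic dystrophy kinase, were at 55.0 and 60.0 PSI against DMSO means of 85.0 and 89.5. For Dmpk DMSO library B was itself at 71.4, next to 97.1 and 100 in A and C, and without A or C the call was lost (-25.7 and -24.2 PSI).

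With all 3 DMSO libraries, splice sites and introns gave shares close to those between DMSO libraries. Of 15957 alternative 3′ splice sites 71 (0.445%) were called higher and 103 (0.645%) lower, against 0.466% to 0.571% and 0.514% to 0.573% among controls. Of 11813 alternative 5′ splice sites 66 (0.559%) were higher and 63 (0.533%) lower, against 0.649% to 0.761% and 0.465% to 0.712%. Of 86306 introns 140 (0.162%) were retained more and 95 (0.11%) less, against 0.135% to 0.252% and 0.084% to 0.182%. With all 3, the lower calls at 3′ splice sites were the only share of these 6 above the range of the controls. The comparisons among controls used fewer DMSO libraries. Without A, B or C, lower calls at 3′ splice sites numbered 132, 124 and 126, against 81 to 97 between DMSO libraries. Those at 5′ splice sites then numbered 93, 96 and 88, against 54 to 90. Lower calls of introns numbered 175, 159 and 151, against 72 to 163. Higher calls at 3′ splice sites numbered 96, 99 and 82, against 79 to 95. Higher calls at 5′ splice sites (87, 81 and 79) and of introns (166, 193 and 208) stayed within 77 to 96 and 121 to 216. At this background single events are described by their values alone. The intron with the largest increase was in Arfgap1, a GTPase-activating protein of the Golgi, at 8.3, 7.7 and 3.2 PSI with DMSO and 41.2 with Crenolanib, from 45 reads. A 3′ splice site of Ache, the acetylcholinesterase gene, was at 41.1, 50.8 and 53.1 PSI and at 10.4 with Crenolanib, from 48 reads. A 5′ splice site of A4galt, a glycosyltransferase gene, was at 47.1, 45 and 51.4 PSI and at 20.2, from 183 reads.

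**Figure D3:**
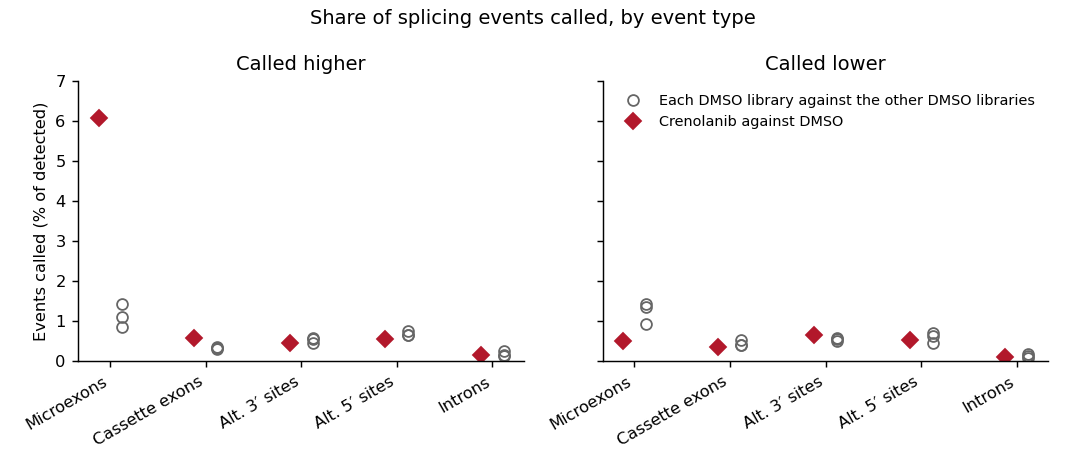
Share of detected splicing events called higher (left) and lower (right), in % (y axis), by event type (x axis). Red diamonds are Crenolanib against DMSO and open circles each DMSO library against the other DMSO libraries. The share of microexons called higher, 6.08%, stood above the controls at 0.849% to 1.42%, and every other share with Crenolanib was below 1%.

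Inhibitors of the same signalling route were profiled in the study, and their libraries were compared with that of Crenolanib directly, without a DMSO library between them. These were the MEK inhibitor Trametinib at 1 µM, the ERK inhibitor SCH-772984 at 2 µM and the pan-TRK inhibitor GNF-5837 at 0.5 µM, with 1 library each and 24 h of treatment. Only SCH-772984 was at the dose of Crenolanib. An equal dose of a different compound need not block its target equally, and how far each target was blocked was not measured. Against SCH-772984, 28 of 597 microexons (4.69%) were higher with Crenolanib and 10 (1.68%) lower. Pairs of DMSO libraries compared in the same way gave 1.37% to 2.42% higher and 1.38% to 1.75% lower. Ank2 stood at 83.7 PSI against 55.9 and Zmynd8, a chromatin reader gene with a 12-nt exon, at 67.7 against 47.1.

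For the other inhibitors the doses differ, and values are set side by side. Against Trametinib 11 of 597 microexons (1.84%) were higher in the Crenolanib library and 20 (3.35%) lower. Against GNF-5837 9 of 582 (1.55%) were higher and 34 (5.84%) lower. Snx14 was at 69.8 PSI with Trametinib, 64.2 with SCH-772984 and 71.4 with GNF-5837, next to 78.0 with Crenolanib. The decreased exon of Gnas was at 37.2, 39.1 and 41.0 PSI with the same 3, next to 35.3 with Crenolanib. Against the shared DMSO libraries, Trametinib had 51 microexons called higher and 3 lower of 621, SCH-772984 25 and 2 of 621, and GNF-5837 66 and 3 of 589.

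The Crenolanib library differed from all 3 of these libraries in 5 microexons, 2 higher and 3 lower. The comparisons with Trametinib, SCH-772984 and GNF-5837 detected 597, 597 and 582 microexons. They share 1 Crenolanib library, so a stray value there would enter all 3, and no such count was taken among control libraries. Those of Macf1, Slc38a10 and Ergic3 were not called against DMSO. The 14-nt exon of Ccnl1, the gene of cyclin L1, which takes part in splicing, was at 9.1, 8.6 and 4.9 PSI with DMSO and at 23.6 with Crenolanib (interval 18 to 30.3, 179 reads). It was at 10.4 with Trametinib, 12 with SCH-772984 and 8.8 with GNF-5837, next to the DMSO values. A 6-nt exon of Macf1, a spectraplakin gene, was at 11.6 PSI with Crenolanib from 41 reads and at 0.0 with each of the others, but DMSO library C was at 11.8. The exon of Nbea, at 71.3 PSI, was lower than with Trametinib (84.0), SCH-772984 (82.0) and GNF-5837 (85.5), which lay near DMSO. For Ergic3 the order was reversed. Crenolanib was at 37.2 PSI, within the DMSO range, and the other inhibitors were at 53.6, 54.6 and 56.4. A 24-nt exon of Slc38a10, an amino acid transporter gene, was likewise at 46.0 PSI with Crenolanib, within the DMSO range of 37.1 to 47.0, and at 61.7, 58.4 and 65.4 with the others.

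For genes, the ratio of RPKM was taken with 0.5 added to both values, which understates changes of low genes, and a 2-fold limit was used with more than 5 RPKM in either condition. The replicates of DMSO are merged in the table, so that these ratios carry no error and the depth behind a value is unknown. Of 9733 genes 179 (1.84%) were past 2-fold higher and 239 (2.46%) past 2-fold lower with Crenolanib. The median log2 ratio of all these genes was -0.15. Centred on that median, 254 genes were higher and 191 lower, so that the side with more genes changed with the scaling (42.8% higher of those past 2-fold as deposited, 57.1% centred). Each gene named as past 2-fold stayed on its side of 0 when centred, and Ier3, Chac1, Stc2 and Insm1 were then short of 2-fold (-0.87, -0.91, -0.85 and -0.92).

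Among the gene lists, that of genes that report the activity of the ERK cascade had the lowest median ratio. Of 15 genes of MAPK feedback and output above 5 RPKM, 12 were past 2-fold lower and 1 higher, with a median log2 ratio of -1.95, or -1.80 relative to all genes. Etv5, Etv4 and Etv1 encode ETS transcription factors induced by ERK. Etv5 was at 35.0 RPKM with DMSO and at 0.43 with Crenolanib, Etv4 at 66.0 and 2.06, and Etv1 at 19.9 and 2.55. Dusp6 and Dusp4, phosphatases that switch off ERK, were at 22 and 60.3 RPKM with DMSO and at 0.55 and 3.33 with Crenolanib. Spry4, an inhibitor of receptor signalling, went from 6.60 to 0.08 RPKM, and Spred1 and Spred2, of the same family, from 33.3 to 9.82 and from 30.5 to 7.50. Ccnd1, the gene of cyclin D1, was at 93.5 and 38.4 RPKM. The member that was higher was Rgs4, a regulator of G-protein signalling, at 3.01 RPKM with DMSO and 27.8 with Crenolanib, the largest increase named. Dusp1 was at 4.77 and 5.81 RPKM.

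Etv5, Dusp6, Ccnd1 and Rgs4 lay on the same side of DMSO with the other inhibitors of the route, to varying extents. Etv5 was at 0.42 RPKM with Trametinib, 3.77 with SCH-772984 and 0.27 with GNF-5837. Dusp6 was at 0.69, 2.71 and 0.44 RPKM in the same order. SCH-772984, at the dose of Crenolanib, left higher values of both. Ccnd1 was at 40.5, 63.4 and 21 RPKM. Rgs4 was at 46.1, 11.3 and 91.5 RPKM, further from DMSO than with Crenolanib for Trametinib and GNF-5837.

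**Figure D4:**
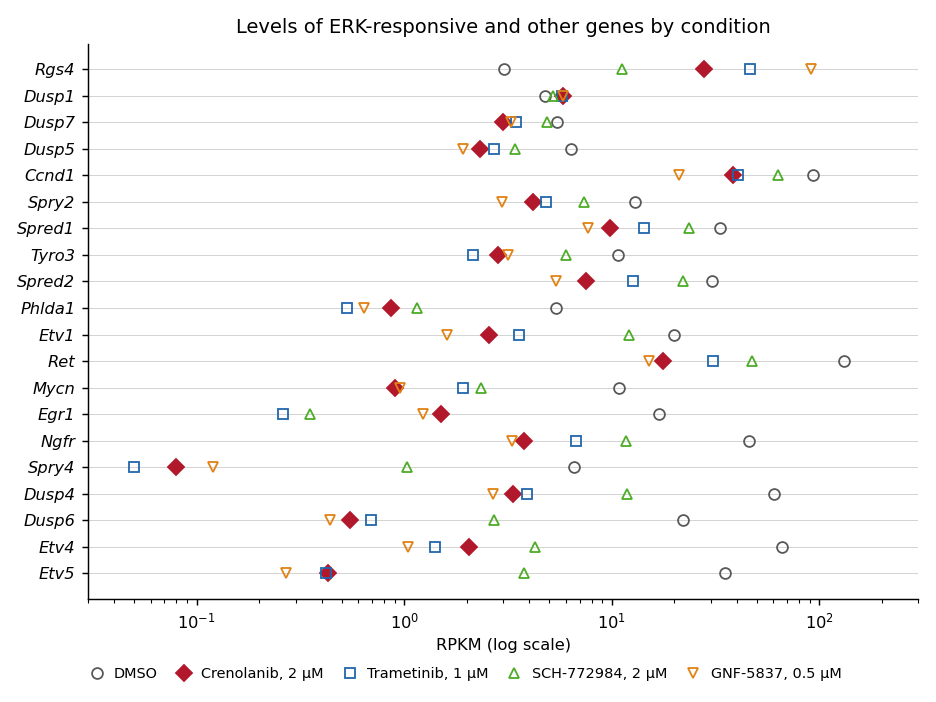
RPKM (x axis, log scale) of the 15 genes of MAPK feedback and output above 5 RPKM and of Ret, Ngfr, Tyro3, Mycn and Egr1, in DMSO (circles), Crenolanib (red) and 3 inhibitors of the same route, 1 value per condition. Crenolanib values lay left of DMSO for most genes, as for Etv5 at 0.43 against 35.0, and right of it for Rgs4 and Dusp1.

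Receptors other than class III differed as well. Ret, the receptor of the GDNF family, was at 132 RPKM with DMSO and at 17.6 with Crenolanib, 7.32-fold lower. Ngfr, the low-affinity neurotrophin receptor, went from 46.0 to 3.77 RPKM, and Tyro3 from 10.7 to 2.84. Egfr was higher, at 2.83 and 6.44 RPKM, the highest value of the 28 conditions in the table, next to 3.02, 2.89 and 2.37 with Trametinib, SCH-772984 and GNF-5837. Of the 9 receptor genes above 5 RPKM these were the 3 lower and the 1 higher past 2-fold. Ntrk3, Insr, Fgfr1, Ddr1 and Ddr2 stayed within 2-fold. Alk was at 3.01 and 3.27 RPKM.

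Other genes among the 15 with the smallest ratio had varied functions. Vgf, a neuropeptide precursor, was at 108 RPKM with DMSO and at 7.10 with Crenolanib. Dkk1, a secreted WNT antagonist, was at 81.9 and 7.08, Loxl2, a lysyl oxidase, at 18 and 0.87, and Pcsk6, a proprotein convertase, at 22.9 and 2.65. Mycn, the neuroblastoma oncogene, was at 10.9 and 0.90, the lowest of the 28 conditions. Egr1, an immediate early transcription factor, was at 16.8 and 1.51. Enc1, Abcc3 and Ppfibp2, of which the last encodes a liprin-β, went from 83.1 to 10.1, from 11.8 to 1.23 and from 30.8 to 2.50 RPKM. All of these were lower than DMSO with the other 3 inhibitors as well, for example Dkk1 at 14.1, 31.6 and 6.32 RPKM.

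The genes with the largest ratio after Rgs4 came from several functions. Adm, the gene of the peptide adrenomedullin, was at 0.98 RPKM with DMSO and at 8.16 with Crenolanib. Mxd4, a MAX partner that opposes MYC, was at 2.05 and 11.4, and Pnrc1, a nuclear receptor coactivator, at 2.39 and 9.55. Genes of excitable cells were among them, with the sodium channel subunit Scn3b at 14.7 and 53.5 RPKM, the G-protein subunit Gng4 at 5.09 and 22.3, and Fkbp1b, which binds ryanodine receptors, at 4.99 and 19.9. Pdlim3 was at 17.5 and 80.2, Eml2 at 0.90 and 5.93, Ctso at 2.12 and 11.2, Pxylp1 at 3.76 and 17.4, Rec8 at 4.41 and 17.6, and A4galt at 2.76 and 10.9. Hk1os and Lrp8os2, antisense genes at 22.6 and 6.56 RPKM with Crenolanib, are uncertain because reads of a gene and its antisense partner cannot be told apart without strand. Of the 179 genes past 2-fold higher, 49 had their highest value of the 28 conditions with Crenolanib, and of the 239 lower 67 had their lowest. Ties were counted, and 16 of the 239 were listed at 0 with Crenolanib. These genes were selected by the same Crenolanib values, and the share over all genes was not taken.

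Few genes set the Crenolanib value apart from all 3 related inhibitors. Of 9911 genes above 5 RPKM in any of these 4 conditions, 26 were past 2-fold higher and 23 past 2-fold lower than in each of the other 3. Pde4d, a cAMP phosphodiesterase, was at 15.1 RPKM with Crenolanib and at 6.48 with DMSO, 6.09 with Trametinib, 4.82 with SCH-772984 and 5.13 with GNF-5837. Slc40a1, the gene of the iron exporter ferroportin, was at 8.55 RPKM against 3.34 with DMSO and 3.36, 2.28 and 3.80 with the others. Islr2, a leucine-rich repeat membrane protein of neurons, was lower, at 10.5 RPKM against 62.4 with DMSO and 23.4, 26.3 and 23.1 with the others. Adamts4, a protease of the extracellular matrix, was at 2.02 RPKM against 6.75 with DMSO and 4.76, 5.2 and 4.57. Rps27, at 13.7 RPKM against 61.2 with DMSO, has near-identical copies in the genome and is uncertain.

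The genes that carry the increased microexons were mostly within 2-fold of their DMSO level. Of the 36 genes 35 were found in the expression table and 33 passed 5 RPKM, of which 1 was past 2-fold higher and 0 lower, with a median log2 ratio of 0.05 beside -0.15 over all genes. The gene past 2-fold was Ppfia2, at 8.59 RPKM with DMSO and 19.1 with Crenolanib. Short of 2-fold were Inpp4a at 4.18 and 8.31 RPKM, Fbxo25 at 22.5 and 41.2, and Erc1 at 21.9 and 39.4, the last the highest of the 28 conditions. Layn, below the 5 RPKM filter, was at 2.1 and 4.33 RPKM. Snx14 was at 12.1 and 13.1 RPKM.

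Splicing regulators known for neural microexons gave no gene past 2-fold. Of 25 above 5 RPKM, 14 were above and 11 below the median of all genes, with a list median of -0.10, which is 0.05 above that of all genes, so that the sign depends on the scaling. Srrm4 was at 10.4 RPKM with DMSO and 13.5 with Crenolanib, and Srrm3 at 18.5 and 25.2. Ptbp1 was at 476 and 313 RPKM, a log2 ratio of -0.61. Rbm38, which the study describes as a negative regulator of microexon splicing, was at 40.62 and 27.43 RPKM, a log2 ratio of -0.56. It was at 23.33 RPKM with Trametinib, 28.15 with SCH-772984 and 22.51 with GNF-5837. These are mRNA levels, and protein levels were not measured here. Celf3, of a family that binds introns near neural exons, was at 105 and 172 RPKM, the second highest of the 28 conditions. A list of SR and hnRNP proteins, which also holds the CLK and SRPK kinases that phosphorylate SR proteins, had 33 genes above 5 RPKM with a median of -0.40, 0 of them past 2-fold in either direction and 27 below the median of all genes. The kinase genes Clk1, Clk3, Clk4 and Srpk2 were among the 6 above it, as for Clk1 at 32.2 and 42.1 RPKM.

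In several further lists most genes lay on one side of the median of all genes, few or none of them past 2-fold, and 3 of these lists are described here. In the integrated stress response, which adapts amino acid supply, 24 of 25 genes lay below the median of all genes, the list median was -0.71, and 3 genes (Chac1, Stc2 and Gdf15) were past 2-fold lower. Atf4, its main transcription factor, was at 309 RPKM with DMSO and 188 with Crenolanib, and Asns, asparagine synthetase, at 548 and 353. In sterol synthesis 23 of 24 genes lay above the median of all genes, with a list median of 0.27 and 0 past 2-fold. Hmgcs1 was at 107 and 186 RPKM and Msmo1 at 80.1 and 132. In cell cycle and DNA replication 33 of 38 genes lay below, with a median of -0.41 and 0 past 2-fold, as for Cdk1 at 667 and 442 RPKM. Ccnb2, the exception furthest above, was at 51.7 and 59.8.

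Targets of FOXO transcription factors, which growth factor signalling through AKT restrains, had a median of 0.51 over 12 genes, with 10 above the median of all genes. Foxo3 itself, at 11.3 and 32.3 RPKM, and Pik3ip1, an inhibitor of PI3K, at 2.45 and 9.04, were past 2-fold higher. Irs2, an insulin receptor substrate, was past 2-fold lower, at 33.2 and 7.83 RPKM. Immediate early genes had a median of -0.27 over 13 genes, with 5 lower and 0 higher past 2-fold (Egr1, Ier2, Ier3, Ier5 and Nr4a1). Jun was at 15.9 and 24.7 RPKM and Myc at 95.6 and 85.5.

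The remaining lists held few genes past 2-fold. Of 20 glycolysis genes 2 were lower, the hexokinase gene Hk2 at 27.2 and 7.90 RPKM and the lactate exporter gene Slc16a3 at 144 and 62.9, with a list median of -0.32. Of 12 p53 targets 2 were lower, Plk3 and Gdf15, with a median of -0.44, and Cdkn1a was at 11.6 and 12.5 RPKM. No gene passed 2-fold among 29 of the lysosome (median -0.07), 14 of fatty acid synthesis (-0.12), 11 of heat shock (-0.35), 10 of the oxidative and metal response (-0.35) and 19 of oxidative phosphorylation (-0.20). The medians of the lysosome and fatty acid lists turn positive when centred. Several of these lists also lay mostly below or above the median of all genes. Below it were 9 of 10 genes of the oxidative and metal response and 16 of 20 of glycolysis. Above it were 22 of 29 genes of the lysosome.

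**Figure D5:**
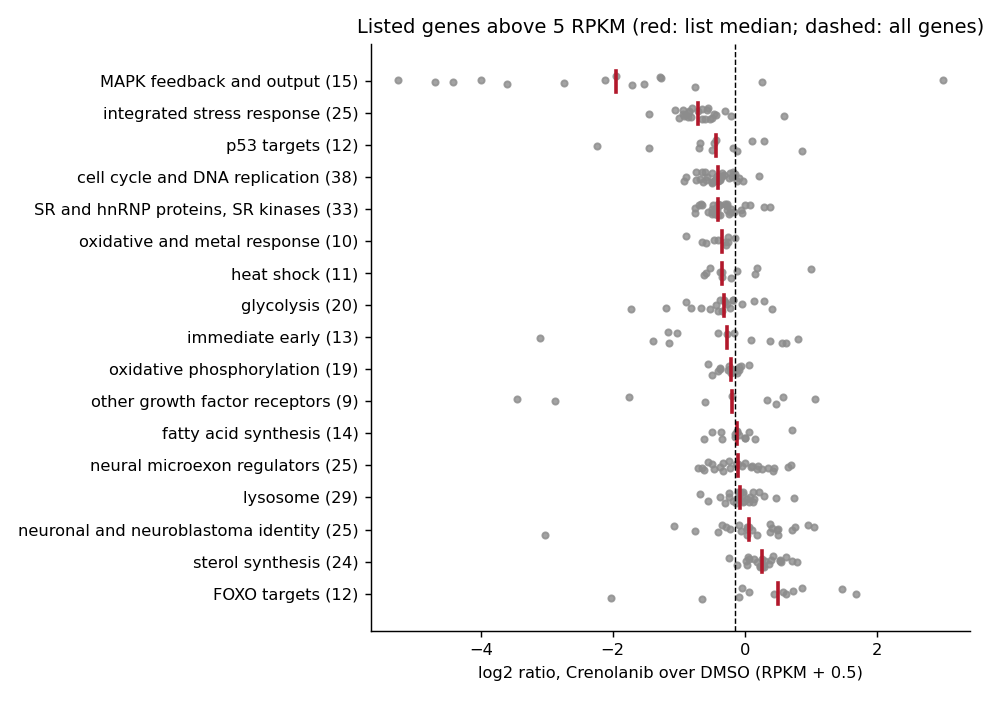
Log2 ratio of RPKM + 0.5, Crenolanib over DMSO (x axis), for each gene above 5 RPKM in 17 lists (number of genes in parentheses). Red bars are list medians and the dashed line is the median of all genes, -0.15; MAPK feedback and output had the lowest median, -1.95, and FOXO targets the highest, 0.51.

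Markers of the labelled cell type were present in part. Hand2, a transcription factor of noradrenergic neuroblastoma, was at 248 RPKM with DMSO and at 253 with Crenolanib. Of 25 neuronal and neuroblastoma genes above 5 RPKM, Syt1, the calcium sensor of vesicle release, was past 2-fold higher, at 40.2 and 84.1 RPKM, and Mycn and Insm1 were past 2-fold lower. Dcx, Nefl and Nefm were below 0.1 RPKM in both conditions. In a bulk library, fewer cells of a type and less RNA per cell cannot be told apart. None of 8 fibroblast markers and none of 9 immune and endothelial markers passed 5 RPKM, with summed levels of 0.5 RPKM in both conditions and of 4.8 and 6.6. Of 12 glial markers only Pmp22 passed, at 50.2 and 31.8 RPKM, whereas Sox10, Aqp4 and Mog were listed at 0 in both.

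The libraries differed in depth. Inclusion and exclusion reads were summed over all exon events, so that a read used in several events was counted in each. Crenolanib had a sum of 38657282, within the 33489970 to 75978445 of all 34 libraries. DMSO A and B had larger sums, 75978445 and 66602104, and DMSO C was close to Crenolanib, at 37427027. The number of microexons that passed the filters was 623 with Crenolanib and 567 to 686 over all libraries.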

How the data were processed

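PolyA+ RNA of N2A cells had been sequenced in 34 libraries, of which the Crenolanib library, the 3 DMSO libraries and 3 libraries of related kinase inhibitors were compared here, grouped by the sample labels. The authors aligned reads to exon and intron junctions with vast-tools on mm9 and deposited, per event and library, the percent spliced in with a quality string that holds inclusion and exclusion reads. For RPKM, the authors summed Salmon estimates by gene (0.10.2 in the submitters' notes) over GENCODE vM21 transcripts and deposited 1 merged value per condition. Their log2 fold changes, p-values and FDR values, and a further table of pooled splicing estimates and calls, were not used. No column of sample values was left without a condition (0 columns).

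An exon or splice site needed a coverage score of LOW or better. Balanced reads were required of exons outside the microexon class of vast-tools, and not of exons in that class or of splice sites. Introns needed 15 reads and a balance p above 0.05. An event was detected when the Crenolanib library and at least 2 of 3 DMSO libraries passed. PSI was averaged over passing libraries, and the probability of a direction was estimated with 2000 draws for each library from a beta distribution with parameters 1 above the inclusion and exclusion reads. The calls were tested on simulated data. Wilson intervals cover counting error only. Gene ratios used a pseudocount of 0.5, with a filter of 5 RPKM. Other limits, DMSO libraries, pseudocounts and filters were tried.

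Exons were named from the genes of the study's RT-PCR panel and by size of change. The latter were called events with 20 reads in all 4 libraries and outside the DMSO range. They were 12 higher and up to 8 lower microexons, and 5 of other types in each direction. Genes were the 15 largest and 15 smallest ratios past 2-fold with 0.5 RPKM in both conditions. Predicted genes, clones, pseudogenes and small RNAs were left out. List members and genes with a called microexon were also named. Splice sites and introns are named in part, and a few items are not reported here. Genes 2-fold apart from all 3 related inhibitors were named under the same symbol rule, when at 0.5 RPKM or more with Crenolanib and with each of these inhibitors. The members, the 21 gene lists and these rules were chosen with earlier results of these data known. Python 3.11.15, numpy 2.4.6, pandas 2.3.3 and matplotlib 3.10.9 were used.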

Additional observations from a re-analysis of the deposited data

How the results depend on the processing

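Of the counts under other settings, 68 stayed within 1.5 times the reported count and 48 did not. A limit of 15 PSI left 20 increased microexons, 135 higher and 69 lower cassette exons, 36 higher and 41 lower alternative 3′ splice sites, 34 higher and 34 lower alternative 5′ splice sites, and 93 more and 59 less retained introns, while the sum over the DMSO libraries was 11 higher and 8 lower microexons (21 and 23 at 10 PSI). A posterior above 0.99 left 127 lower cassette exons, 29 and 48 alternative 3′ splice sites, 31 and 29 alternative 5′ splice sites, 41 and 33 introns, and 7 and 11 microexons between DMSO libraries. Coverage of OK or better left 39 and 38 alternative 5′ splice sites and 67 introns retained more. Exons of up to 15 nt gave 17 increased and 1 decreased microexons, and 9 and 8 between DMSO libraries. In the direct comparisons a limit of 15 PSI left 1 higher and 6 lower than with Trametinib, 7 and 4 than with SCH-772984, and 5 and 14 than with GNF-5837, and exons of up to 15 nt gave 6 and 11, 17 higher, and 4 and 15 in the same order. Leaving out 1 DMSO library gave 36 to 41 increased and 4 to 7 decreased microexons, 88 to 96 lower alternative 5′ splice sites and 151 to 175 introns retained less, and 32 to 34 of the 36 increased microexons were called each time. A filter of 1 RPKM gave 469 genes higher and 511 lower past 2-fold, and any value above 0 gave 553 and 661. Centring gave 254 and 191. The causes of these shifts, beyond the stricter or looser limit itself, were not tested. Gene ratios could not be taken without a DMSO library, since the table holds 1 merged DMSO value. No paired analysis was possible because the Crenolanib library carries no replicate number. With 1 library, a spread between Crenolanib treatments could not be measured.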

Other observations

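A set of 3 genes that were low in DMSO had higher values with Crenolanib without reaching 5 RPKM, and they were chosen after their values were seen. The summed levels of the marker lists did not share a direction, at 53.9 RPKM with DMSO and 37.2 with Crenolanib for 12 glial markers, and at 4.8 and 6.6 for 9 immune and endothelial markers. The glial sum was mostly Pmp22, at 50.2 and 31.8 RPKM, and its direction rests on that gene. Gfap, an astrocyte filament gene, was at 0.29 RPKM with DMSO and 1.65 with Crenolanib, and at 0.76, 0.28 and 0 with Trametinib, SCH-772984 and GNF-5837. Itgam, an integrin gene of myeloid cells, was at 0.03 and 0.31 RPKM, and at 0.04, 0.02 and 0.03 with the others. Il34, a ligand of the class III receptor CSF1R, was at 0.07 and 0.46 RPKM, and at 0.05, 0.01 and 0.09. Of other markers of those cell types, Aqp4 was listed at 0 in both conditions and Ptprc was at 0.06 and 0.12 RPKM.

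The 33-nt exon of Ubr4, the gene of a ubiquitin ligase, lies just above the length limit of a microexon. It was at 25.7, 23.4 and 22.8 PSI in the DMSO libraries and at 52.7 with Crenolanib (95% Wilson interval 45.7 to 59.5, 198 reads). It was at 54.2 PSI with Trametinib, 33.2 with SCH-772984 and 62.2 with GNF-5837. In the direct comparison Crenolanib was called higher than SCH-772984 at the same dose. This exon was also chosen after its values were seen.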
